A study of Mus musculus with 10 samples.

Results

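The genes examined here encode the constitutive proteasome, the protease found in every nucleated cell, in effector memory (EM) γδ T cells sorted as CD62L-CD44+ cells from mouse spleens. Members were the rows of the count table whose Entrez ID maps to a mouse symbol made of Psma, Psmb, Psmc or Psmd and a number, with at least 50 counts summed over the 10 libraries, and without the interferon-inducible immunosubunits Psmb8, Psmb9 and Psmb10. The pattern matched 39 genes, of which the 3 immunosubunits were left out and Psmb11, the thymic catalytic subunit, fell under the minimum with no counts. This left 35 members of 27179 genes, 15 of the core particle and 20 of the regulatory particle. The rule used no difference between the groups.

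The groups were 5 female C57BL/6 mice pre-exposed to *Plasmodium chabaudi* (labelled Pchabaudi) and 5 naïve mice (labelled Naive), with 1 library of bulk RNA-sequencing per mouse. Per the study's methods, mice aged 6 to 8 weeks were infected with 50000 infected red blood cells and cleared of parasites from day 14 with chloroquine and pyrimethamine, by injection and then in drinking water for 5 days, and the naïve mice received the same drugs at the equivalent time. Spleens were taken 12 weeks after treatment ended, without restimulation, so the comparison addresses whether resting EM γδ T cells from mice that had met the parasite differ from those of mice that had not. The gate leaves in any cell that carries the stained markers, and a bulk library cannot tell more expressing cells from more RNA per cell.

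The 26S proteasome degrades proteins tagged with ubiquitin. Its core particle is a barrel of stacked rings, in which outer rings of alpha subunits gate entry and inner rings of beta subunits hold the catalytic sites, while the regulatory particle caps the barrel, recognises ubiquitin, removes it, and unfolds the substrate with a ring of ATPases. In activated and memory lymphocytes, the proteasome supports protein turnover during proliferation, activates NF-κB by degrading its inhibitor, and supplies peptides for presentation on MHC class I. Subunits are made in near-equal amounts for assembly, and the transcription factor Nfe2l1 is known to raise their genes together through antioxidant response elements when proteasome activity is low.

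To show which promoter elements the members share, the 250 bases before the start of 4 members are shown: Psma7 and Psmb6, the members called between the groups, Psmb5, the catalytic subunit with the chymotrypsin-like activity, and Psmd11, the regulatory member with the largest log2 fold change. The sequences are from RefSeq (GRCm38.p6) and run 5′ to 3′ on the gene's strand. Capitals mark matches on either strand to 4 motifs. The antioxidant response element was searched as TGACNNNGC, letters that other basic leucine zipper factors also bind in part. The CCAAT box was searched by those letters, and the element of ETS factors as CCGGAAG. The fourth was the motif of nuclear respiratory factor 1. No matches of different motifs overlapped in the sequences shown. The windows are chr2:180042465-180042714 (minus strand) for Psma7, chr11:70525107-70525356 (plus) for Psmb6, chr14:54617996-54618245 (minus) for Psmb5 and chr11:80428365-80428614 (plus) for Psmd11. The gene record of Psmb6 begins inside its window, at 70525324, and the start site that its window ends at lies 33 bases further in.
Psma7: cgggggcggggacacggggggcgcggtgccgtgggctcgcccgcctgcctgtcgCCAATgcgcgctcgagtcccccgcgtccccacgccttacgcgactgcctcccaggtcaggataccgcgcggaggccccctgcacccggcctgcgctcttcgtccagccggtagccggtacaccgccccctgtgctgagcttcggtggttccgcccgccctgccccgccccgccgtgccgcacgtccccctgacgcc
Psmb6: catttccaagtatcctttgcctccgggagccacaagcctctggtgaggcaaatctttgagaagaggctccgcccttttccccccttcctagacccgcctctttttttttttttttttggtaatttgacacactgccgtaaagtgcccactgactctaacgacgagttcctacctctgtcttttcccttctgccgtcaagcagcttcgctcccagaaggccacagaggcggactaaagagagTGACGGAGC
Psmb5: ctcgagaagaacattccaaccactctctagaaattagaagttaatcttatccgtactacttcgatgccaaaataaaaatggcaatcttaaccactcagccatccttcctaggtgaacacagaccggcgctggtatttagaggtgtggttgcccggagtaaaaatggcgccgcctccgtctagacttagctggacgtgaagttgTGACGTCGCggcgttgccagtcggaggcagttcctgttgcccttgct
Psmd11: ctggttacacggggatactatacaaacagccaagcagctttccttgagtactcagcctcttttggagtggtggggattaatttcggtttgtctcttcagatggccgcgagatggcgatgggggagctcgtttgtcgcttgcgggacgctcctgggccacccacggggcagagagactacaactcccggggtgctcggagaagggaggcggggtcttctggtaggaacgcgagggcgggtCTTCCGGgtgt

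An antioxidant response element began 9 bases before the end of the Psmb6 window, which is 24 bases after the start of the gene record. Another began 47 bases before the start of Psmb5, Psma7 held 1 CCAAT box, and Psmd11 held 1 ETS match. A window was found for 28 of the 35 members, and not for Psma8, Psmb1, Psmb2, Psmb7, Psmc3, Psmd3 and Psmd7. The antioxidant response element occurred in 5 of the 28 windows (17.9%, against 10.1% of 27025 promoters), in Psmb5, Psmb6, Psmc6, Psmd9 and Psmd12. The CCAAT box occurred in 11 (39.3% against 34.5%), the ETS letters in 8 (28.6% against 7.05%) and the nuclear respiratory factor 1 motif in 6 (21.4% against 5.09%). The 8 windows with ETS letters belonged to Psmc1, Psmc2, Psmc6, Psmd2, Psmd4, Psmd6, Psmd11 and Psmd12, so they were found in 8 of 17 regulatory and 0 of 11 core windows. In 6 of the 28 windows, the start site lay inside the gene record, by 1 to 3 bases in Psmc6 and Psmd5, 33 in Psmb6, 78 in Psma4, 530 in Psmd2 and 5340 in Psma3, so these windows lie inside the gene record in part or whole. The counts above include matches in such windows, namely the nuclear respiratory factor 1 motif in Psma3 and Psma4, the CCAAT box in Psma3, the ETS letters in Psmd2 and Psmc6, and the antioxidant response element in Psmb6 and Psmc6. These are matches of letters, not measured binding sites.

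Library totals ran from 6587199 to 19993444 counts in the naïve group (median 14262979) and from 8747888 to 22542832 in the pre-exposed group (median 13075118), and members took between 0.464% and 0.766% of them. Levels are given in CPM, counts divided by the library's total as scaled by TMM and multiplied by 1e6. The 9 γδ T cell markers (Cd3 chains, Trdc, Trgc genes, Sox13, Cd163l1) were all detected and summed to 8400 to 11574 CPM in naïve and 4611 to 14959 CPM in pre-exposed libraries, lowest in pre-exposed mouse 1. Of these markers, 1 was called higher and 1 lower. Several libraries stood apart. Pre-exposed mice 2, 3 and 4 carry descriptions without the index pair that the other 7 libraries have, and in pre-exposed mouse 5 the top 10 genes took 24.7% of counts, against 5.61% to 10.2% elsewhere. All 5 monocyte and macrophage markers were called higher in the pre-exposed group, with sums of 949, 1462, 614, 318 and 46.9 CPM in pre-exposed mice 1 to 5 against 35.2 to 156 CPM in naïve mice. Sums of the 3 plasma cell markers were 402 to 5362 CPM against 117 to 786 CPM (2 of 3 called higher), of the 5 dendritic markers 65.0 to 320 against 56.7 to 79.9 CPM (3 of 5), of the 4 erythroid markers 253 to 1726 against 62.1 to 351 CPM (3 of 4), and of the 5 B cell markers 43.2 to 133 against 42.3 to 97.2 CPM, with 2 called higher and Ebf1 at 0 in every library. For the 5 αβ T cell markers, the total of pre-exposed mouse 1, 1533 CPM, fell below the naïve range of 1621 to 1963 CPM. Mice 2, 3, 4 and 5 lay above that range, at 3235, 2747, 2750 and 2566 CPM. Of these 5 markers, 1 was called higher. Totals of the 3 NK markers were 333 to 878 against 358 to 966 CPM. Those of the 3 neutrophil markers were 0 to 221 against 0 to 20.8 CPM. No NK or neutrophil marker was called. Every nucleated cell expresses the members, and the part of these other cells in the results below was not tested.

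Of the 35 members, 34 passed the filter on low counts that left 12655 genes for testing. Psma8, which replaces Psma7 in the testis, did not, with 22, 0, 0, 0 and 4 counts in naïve mice 1 to 5 and 19, 28, 2, 3 and 0 counts in pre-exposed mice 1 to 5. In the naïve group, the level per length ranged from 8.41 CPM per kilobase of exon (Psmd9) to 403 CPM per kilobase (Psma2), with a median of 159 for the 14 core members and 75.0 for the 20 regulatory members. The 6 members at the top were of the core particle, namely Psma2, Psma1 (363), Psma6 (322), Psmb2 (232), Psmb1 (209) and Psma7 (186 CPM per kilobase). Among them, the naïve ranges of neighbours overlapped, as for Psma2 (333 to 465) and Psma1 (264 to 423). The catalytic subunits Psmb5 and Psmb7 stood lower, at 70.4 and 66.5 CPM per kilobase, less than the third catalytic subunit, Psmb6, at 148. Psma5 was the lowest core member (42.9). Without the assembly chaperones Psmd5, Psmd9 and Psmd10, the regulatory members spanned 34 (Psmd3) to 175 CPM per kilobase (Psmd14), a factor of 5.14, against 9.38 for the core members. Members varied less between naïve mice, with a median coefficient of variation of 15.3% against 25.0% over all genes tested, than between pre-exposed mice, with 30.5% against 41.6%. The genes tested were not matched to the members for level, so the contrast with them may reflect level alone. Psmc5 was the steadiest in naïve mice (4.61%) and Psmd3 the least steady (32.8%).

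**Figure D1:**
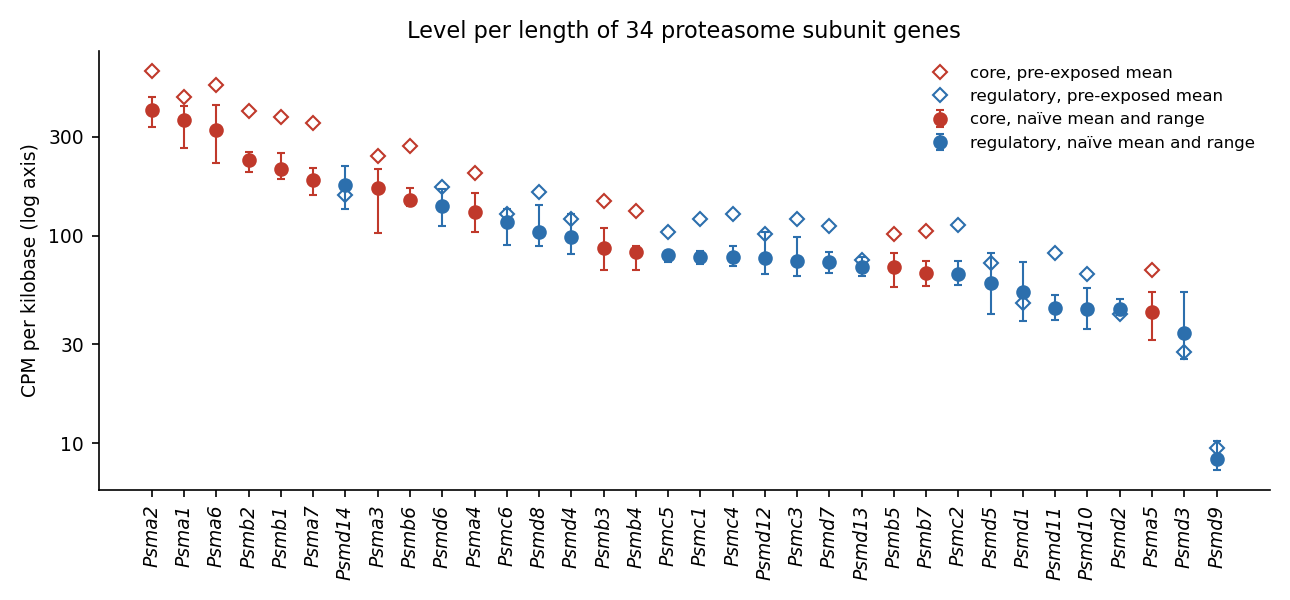
Level per length (CPM per kilobase, log axis) of the 34 members tested, ordered by the naïve mean; filled points with bars give the naïve mean and the range over 5 mice, open diamonds the mean of 5 pre-exposed mice, red the core and blue the regulatory particle. The 6 highest members are of the core particle, and the pre-exposed mean lies above the naïve range for all 14 core members and for 10 of 20 regulatory members, and within it for the other 10.

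Between the groups, 2 of 34 members were called higher in the pre-exposed group and 0 lower by edgeR's quasi-likelihood test at an adjusted p of 0.05. These were Psma7 and Psmb6, both of the core particle. The share, 5.88%, was near the background, since 5.12% of all genes tested were called higher and 1.17% lower. The members leaned to one side below that threshold. The log2 fold change was above 0 in 14 of 14 core members, from 0.36 to 0.90 with a median of 0.66, and in 16 of 20 regulatory members, from -0.30 to 0.88 with a median of 0.34, while the median over all genes was 0.02. Genes of the members' length also leaned that way, with a median of 0.87 over all genes of up to 1000 bases and 0.45 over those of 1000 to 1500 bases. At an unadjusted p of 0.05, 19 members were higher (12 core and 7 regulatory) and 0 lower, where 15.6% of all genes were higher. DESeq2 called 8 members higher (Psma7, Psmb1, Psmb2, Psmb3, Psmb4, Psmb6, Psmc2 and Psmd11) and 0 lower, with 7.97% of all genes called higher and 2.7% lower, whereas limma's TREAT on voom values at a fold change of 1.5, as run here, called 0 members and 0.0158% of all genes higher. The study's methods name that test, but not every setting of it. The study reports genes called in both directions, many more than the run here called, so its calls were not reproduced. The cause of that difference was not tested. The lack of called members in the run here therefore says little about the members. The edgeR calls of Psma7 and Psmb6 were lost with an offset for gene length (core median then 0.08), with the form of the library's description as a covariate, and without any 1 of the naïve mice or of pre-exposed mice 2, 3 and 4. Calls over all genes fell in these settings too, from 5.12% higher to 1.38% with the offset and 0.308% with the description's form. They fell to between 0.387% and 2.3% without 1 naïve mouse, and to 0.553%, 2.66% and 3.78% without pre-exposed mouse 2, 3 or 4.

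**Figure D2:**
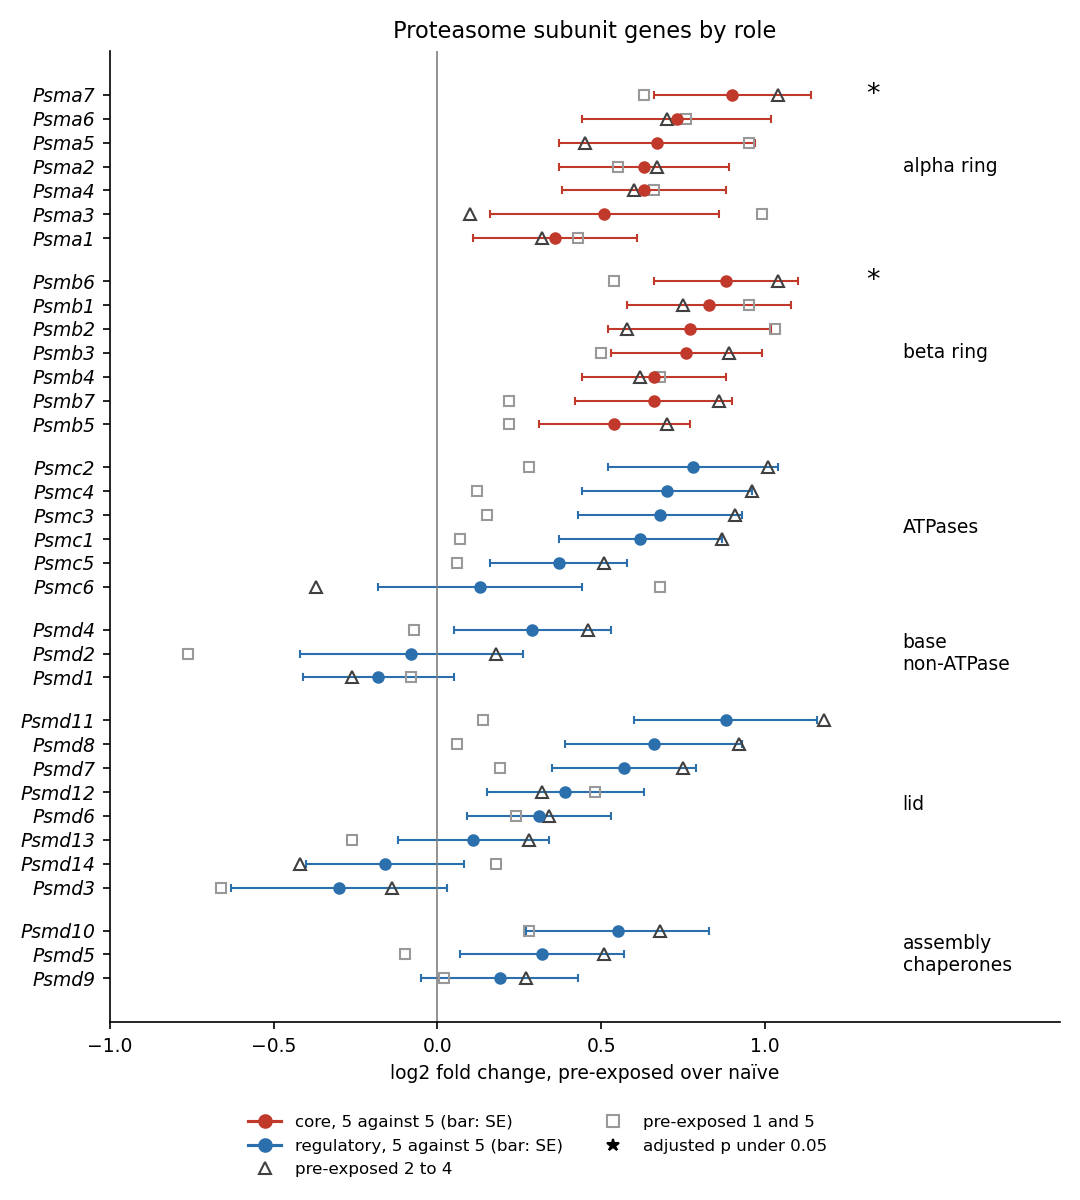
Log2 fold change, pre-exposed over naïve, of 34 members by role; filled points with bars are all 10 libraries with the standard error, triangles pre-exposed mice 2 to 4 alone and squares pre-exposed mice 1 and 5 alone, each against all 5 naïve mice, and stars mark the members called over all 10 libraries (Psma7 and Psmb6). The 14 core members sit between 0.36 and 0.90, and in 5 of 6 ATPases the squares lie at 0.06 to 0.28 and the triangles at 0.51 to 1.01.

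In the alpha ring, all 7 tested members had log2 fold changes above 0 (median 0.63), and 1 was called. Psma7, the alpha4 subunit (chromosome 2, 180036367 to 180042464), was at 139, 162, 168, 164 and 187 CPM in naïve mice 1 to 5 and at 173, 403, 303, 339 and 317 CPM in pre-exposed mice 1 to 5. Pre-exposed mouse 1 lay within the naïve range and the other 4 lay above it. Its log2 fold change was 0.90 (SE 0.24, adjusted p = 0.0387), and 0.63 in pre-exposed mice 1 and 5 alone against 1.04 in mice 2 to 4 alone. Psma1, the alpha6 subunit (chromosome 7, 114264550 to 114276116), had the smallest log2 fold change of the ring. It was at 531, 467, 516, 434 and 331 CPM in naïve mice and at 410, 633, 734, 389 and 771 CPM in pre-exposed mice 1 to 5. The groups overlapped, with mice 1 and 4 inside the naïve range, and its log2 fold change was 0.36 (SE 0.25, adjusted p = 0.387). Psma3, the alpha7 subunit, was the member with the most uneven pre-exposed group: 727 CPM in mouse 5 against 185 to 335 CPM in the other 4 and 147 to 301 CPM in naïve mice, which gave log2 fold changes of 0.99 in mice 1 and 5 and 0.10 in mice 2 to 4. Psma3 is named for that spread, after its values were seen. The remaining alpha members, Psma2, Psma4, Psma5 and Psma6, had log2 fold changes of 0.63 to 0.73 and adjusted p of 0.138 to 0.180.

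In the beta ring, all 7 members had log2 fold changes above 0 (0.54 to 0.88, median 0.76) and an unadjusted p under 0.05, and 1 passed the adjusted threshold. Psmb6, the catalytic beta1 subunit with caspase-like activity (chromosome 11, 70525324 to 70527858), was at 144, 146, 149, 151 and 176 CPM in naïve mice and at 201, 389, 275, 315 and 228 CPM in pre-exposed mice 1 to 5. The groups did not overlap, and the nearest pre-exposed values were those of mice 1 and 5. Its log2 fold change was 0.88 (SE 0.22, adjusted p = 0.0346), with an exact permutation p of 0.00794, the smallest that 5 against 5 can give. Named pseudogenes of Psmb6, Psmb5 and Psmb7 exist (2, 1 and 2), so counts of these genes may be split between copies.

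Psmb5, the catalytic beta5 subunit with chymotrypsin-like activity (chromosome 14, 54614120 to 54617995), was at 50.1, 49.4, 63.2, 71.7 and 72.2 CPM in naïve mice and at 69.7, 110, 96.6, 101 and 67.2 CPM in pre-exposed mice. Mice 1 and 5 lay within the naïve range and mice 2, 3 and 4 above it. The log2 fold change was 0.54 (SE 0.23, adjusted p = 0.162), and in mice 2 to 4 alone 0.70 (adjusted p = 0.0172). Psmb7, the catalytic beta2 subunit with trypsin-like activity (chromosome 2, 38588046 to 38643952), was at 63.7, 73.3, 67.5, 55.5 and 62.1 CPM in naïve mice and at 66.4, 144, 109, 109 and 78.3 CPM in pre-exposed mice. Only mouse 1 lay within the naïve range. The log2 fold change was 0.66 (SE 0.24, adjusted p = 0.107), and in mice 2 to 4 alone 0.86 (adjusted p = 0.00432). Among the structural subunits Psmb1, Psmb2, Psmb3 and Psmb4, log2 fold changes were 0.66 to 0.83 with adjusted p of 0.0616 to 0.0906. Over all members, the groups did not overlap for 3, all of the beta ring and higher in the pre-exposed group (Psmb2, Psmb4 and Psmb6, named for it after their values were seen). That is 8.82% of the 34 members, where 2.77% of all genes were separated in this direction and 2.17% in the other, in which no member was.

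**Figure D3:**
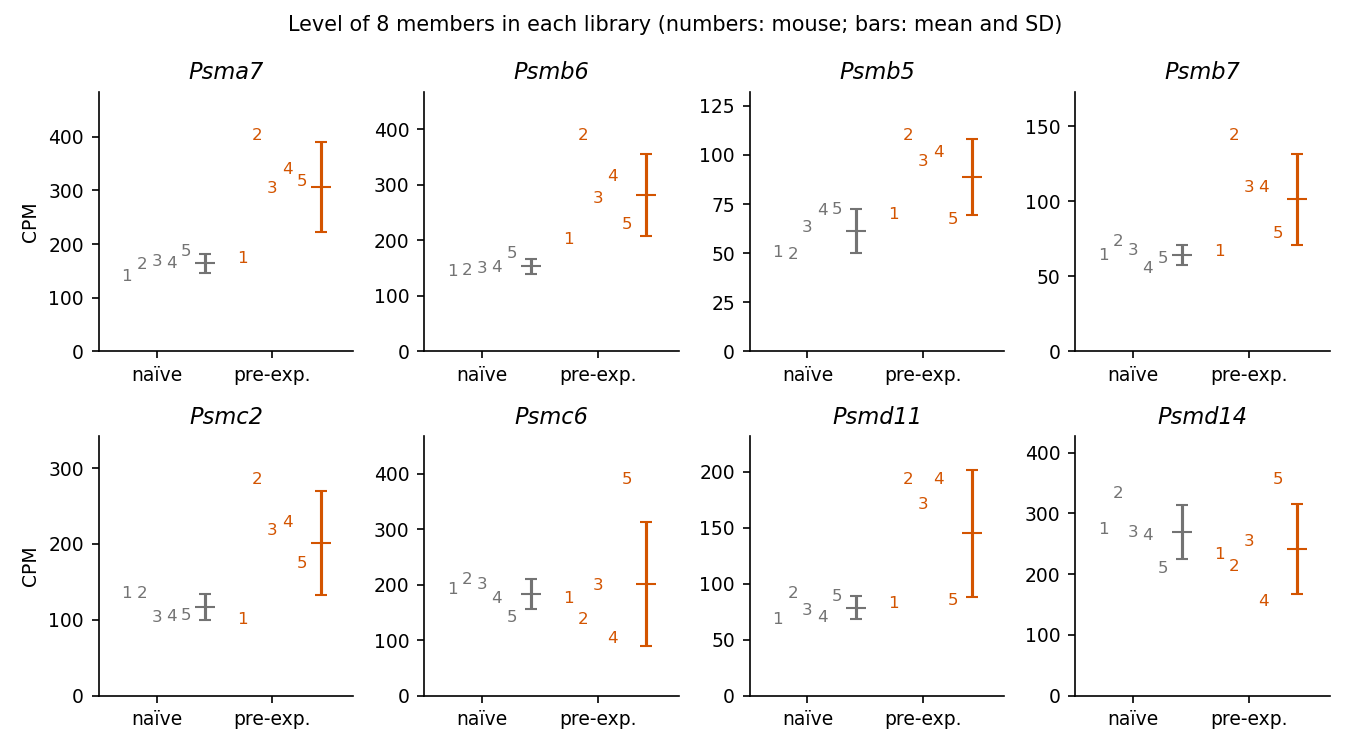
Level in CPM of 8 members in each library, where a digit is the mouse's number and the bar at the right of each group its mean and SD over 5 mice; axes start at 0. For Psma7, Psmb7, Psmc2 and Psmd11, mice 2, 3 and 4 lie above every naïve mouse and mouse 1 does not, and for Psmc6 and Psmd14 mouse 5 is the highest of all libraries while mouse 4 is the lowest.

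The ATPases of the base unfold substrates and open the gate of the core particle. Their 6 log2 fold changes were all above 0, with a median of 0.65, near that of the core particle, and 0 were called by edgeR (4 at an unadjusted p of 0.05, and 1 by DESeq2). Psmc2, the Rpt1 subunit (chromosome 5, 21785275 to 21803787), was at 135, 135, 103, 105 and 106 CPM in naïve mice and at 100, 285, 218, 228 and 174 CPM in pre-exposed mice 1 to 5. Mouse 1 was the lowest of all 10 libraries and the other 4 pre-exposed mice were above all naïve ones. Its log2 fold change was 0.78 (SE 0.26, adjusted p = 0.0843). Psmc6, the Rpt4 subunit (chromosome 14, 45329823 to 45349074), went the other way between mice: 191, 209, 200, 176 and 141 CPM in naïve mice against 175, 137, 199, 103 and 390 CPM in pre-exposed mice. Mouse 5 was above every other library and mice 2 and 4 below every naïve one. The log2 fold change was 0.13 over all mice (SE 0.31, adjusted p = 0.835), 0.68 in mice 1 and 5, and -0.37 in mice 2 to 4. Of all ATPase transcripts, that of Psmc6 has the lowest GC content (37.0%, against 48.7% to 55.1% in the other 5).

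The 3 other subunits of the base that the symbol pattern takes are Rpn1, Rpn2 and Rpn10. They receive ubiquitin chains and shuttle proteins or hold the base together. Their median log2 fold change was -0.08, and 0 were called (0 at an unadjusted p of 0.05 and 0 by DESeq2). Psmd2, which encodes Rpn1 (chromosome 16, 20651122 to 20663414), was at 152, 129, 133, 127 and 136 CPM in naïve mice and at 118, 136, 124, 224 and 35.6 CPM in pre-exposed mice 1 to 5. The coefficient of variation was 7.15% in naïve mice, whereas pre-exposed mouse 4 was the highest and mouse 5 the lowest of all libraries. The log2 fold change was -0.08 (SE 0.34, adjusted p = 0.904). Psmd1, for Rpn2 (chromosome 1, 86064619 to 86139295), was at 168, 242, 162, 171 and 127 CPM against 185, 123, 165, 165 and 132 CPM. The groups overlapped, with a log2 fold change of -0.18 (SE 0.23, adjusted p = 0.673). For Psmd4, the ubiquitin receptor Rpn10 (chromosome 3, 95032688 to 95042614), levels were 107, 102, 114, 134 and 159 CPM in naïve mice and 128, 190, 148, 188 and 98.5 CPM in pre-exposed mice. Mice 2 and 4 were above the naïve range and mouse 5 below it, and the log2 fold change was 0.29 (SE 0.24, adjusted p = 0.477).

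The lid holds the deubiquitinase Psmd14 (Rpn11), which removes the ubiquitin chain as the substrate enters, and scaffold subunits that clasp base and core. Its 8 log2 fold changes ran from -0.30 to 0.88 with a median of 0.35, 0 were called by edgeR (3 at an unadjusted p of 0.05, and 1 by DESeq2). Psmd11, the scaffold subunit Rpn6 that touches the core particle (chromosome 11, 80428615 to 80473248), was at 68.2, 90.8, 75.7, 69.9 and 88.7 CPM in naïve mice and at 82.2, 193, 171, 193 and 84.7 CPM in pre-exposed mice. Mice 2, 3 and 4 stood far above the naïve range and mice 1 and 5 inside it. The log2 fold change was 0.88 (SE 0.28, adjusted p = 0.0702), and 1.18 in mice 2 to 4 alone (adjusted p = 0.000442) against 0.14 in mice 1 and 5 alone.

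Psmd14 (chromosome 2, 61711694 to 61800376) was at 273, 333, 268, 264 and 209 CPM in naïve mice and at 232, 212, 254, 155 and 356 CPM in pre-exposed mice 1 to 5. Mouse 4 was the lowest and mouse 5 the highest of all libraries, as for Psmc6. Its log2 fold change was -0.16 (SE 0.24, adjusted p = 0.736), with 0.18 in mice 1 and 5 and -0.42 in mice 2 to 4. Psmd3, the scaffold subunit Rpn3 (chromosome 11, 98682554 to 98695978), had the lowest log2 fold change of the members, -0.30 (SE 0.33, adjusted p = 0.606), from 67.1, 54.9, 67.2, 60.8 and 115 CPM in naïve mice and 67.4, 63.1, 56.6, 86.3 and 20.5 CPM in pre-exposed mice. Mouse 5 was below all naïve mice, and naïve mouse 5 above all other libraries. Psmd13, for Rpn9 (chromosome 7, 140882394 to 140898642), was at 99.5, 121, 103, 107 and 123 CPM against 111, 136, 142, 141 and 66.9 CPM. Mice 2, 3 and 4 were above the naïve range and mouse 5 below it, for a log2 fold change of 0.11 (SE 0.23, adjusted p = 0.809).

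The chaperones Psmd5, Psmd9 and Psmd10 help assemble the base and are absent from the finished proteasome. Their log2 fold changes were 0.19 to 0.55, and 0 were called by edgeR (0 at an unadjusted p of 0.05, and 0 by DESeq2). Psmd10, gankyrin (chromosome X, 140948425 to 140956711), was at 81.7, 78.7, 56.0, 51.6 and 56.8 CPM in naïve mice and at 40.9, 121, 108, 95.8 and 112 CPM in pre-exposed mice. Mouse 1 was the lowest of all libraries and the other 4 were above the naïve range, with a log2 fold change of 0.55 (SE 0.28, adjusted p = 0.246). Psmd9, p27 (chromosome 5, 123228190 to 123250126), was at 19.2 to 26.6 CPM in naïve mice and at 23.6, 22.6, 25.8, 33 and 18.5 CPM in pre-exposed mice. The groups overlapped, and the log2 fold change was 0.19 (SE 0.24, adjusted p = 0.672).

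The pre-exposed mice differed from each other. Measured as log2 CPM minus the naïve mean, the median core member was at 0.04, 0.86, 0.77, 0.47 and 1.01 in pre-exposed mice 1 to 5, and the median regulatory member at -0.09, 0.63, 0.53, 0.58 and 0.14. In naïve mice these medians stayed between -0.08 and 0.09 and between -0.11 and 0.10. Mouse 1 lay at the naïve level for both particles and mice 2, 3 and 4 above it for both, while in mouse 5 the core median was the highest of all libraries and the regulatory median just above the naïve range. Summed over members, the core particle reached 2487, 4566, 4466, 3390 and 5566 CPM (naïve 2236 to 2841) and the regulatory particle 2361, 3839, 3467, 3370 and 2902 CPM (naïve 2356 to 2785).

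**Figure D4:**
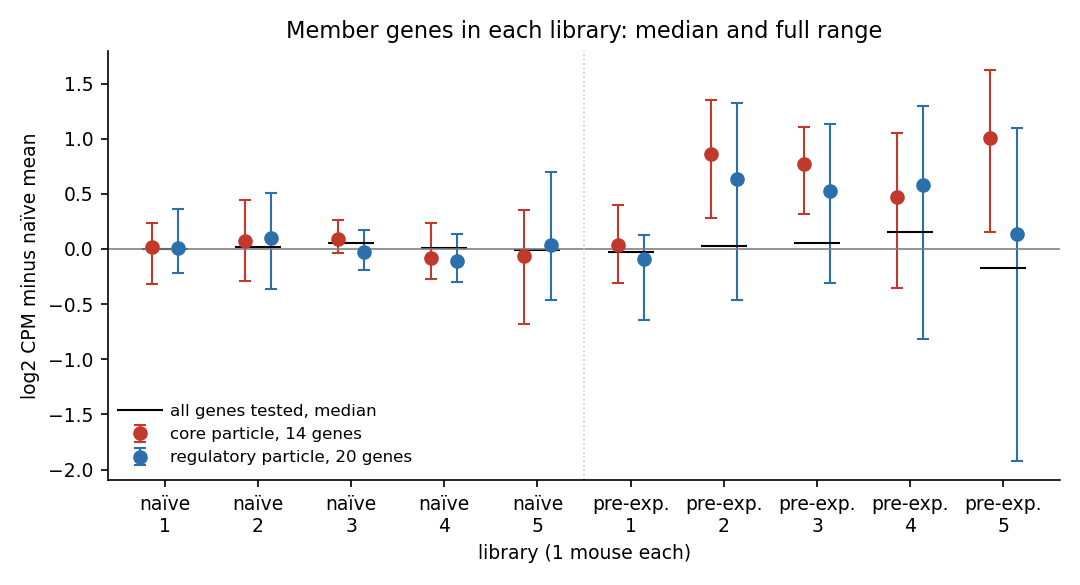
Difference from the naïve mean, in log2 CPM, of the members in each of the 10 libraries; points are the median and bars the full range over 14 core (red) or 20 regulatory members (blue), and black dashes the median over all genes tested. Medians of both particles lie near 0 in the naïve mice and in pre-exposed mouse 1, and in mouse 5 the core median is at 1.01 while the regulatory members range from -1.92 to 1.10.

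Counting members above the highest naïve mouse gave 3 core and 0 regulatory members in pre-exposed mouse 1, where 16.4% of all genes were above and 17.8% below the naïve range. Mouse 2 had 13 core and 14 regulatory members above (33.2% of all genes above, 31.2% below), mouse 3 had 14 and 12 (27.9% and 24.6%), and mouse 4 had 9 and 13 (32.1% and 22.8%). In mouse 5, 13 core and 9 regulatory members were above (31.3% and 38.2%). Members below the lowest naïve mouse numbered 1 core and 5 regulatory in mouse 1, 0 and 2 in mouse 2, 0 and 1 in mouse 3, 0 and 2 in mouse 4, and 0 and 5 in mouse 5. In mice 2, 3 and 4 at once, 19 members (9 core and 10 regulatory) were above the naïve range, which is 55.9% of members where 17.8% of all genes were above in these mice at once.

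The balance between the particles was measured as the mean log2 CPM of core members minus that of regulatory members. Naïve mice 1 to 5 had values of 0.36, 0.35, 0.49, 0.37 and 0.22 (all log2), and pre-exposed mice 1 to 5 had 0.46, 0.67, 0.63, 0.41 and 1.36. Mice 1 and 4 lay inside the naïve range, mice 2 and 3 above it and mouse 5 far above it, for a difference of group means of 0.35. Without mouse 5 the difference was 0.18.

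The pre-exposed mice were then compared by the form of their description, each subset against all 5 naïve mice. Mice 1 and 5 share their form with the naïve mice, whereas mice 2 to 4 do not. Pre-exposed mice 2 to 4 against all naïve mice gave 20 of 34 members called higher and 0 lower by edgeR, which is 58.8% of members where 14.9% of all genes were called higher and 14.9% lower. They were 11 of 14 core members (all but Psma1, Psma3 and Psma5) and 9 of 20 regulatory members, namely 5 of 6 ATPases, Psmd7, Psmd8, Psmd11 and Psmd10. The median log2 fold change was 0.68 for the core and 0.48 for the regulatory particle. In these mice, 8 core members of up to 1000 bases had a median of 0.70 against 0.77 over all genes of that length. From 1000 to 1500 bases, the median was 0.53 over core and 0.51 over regulatory members against 0.49 over all genes, and from 1500 to 2000 bases it was 0.81 over 10 regulatory members against 0.29. Pre-exposed mice 1 and 5 against all naïve mice gave 0 called members, with 0.182% of all genes called higher. At an unadjusted p of 0.05 these mice had 7 members higher, all of the core particle, and 0 lower, where 13.2% of all genes were higher. Their medians were 0.65 for the core and 0.09 for the regulatory particle. In mice 1 and 5, core members of up to 1000 bases had a median of 0.59 against 0.93 over all genes of that length. From 1000 to 1500 bases, it was 0.8 over core and 0.12 over regulatory members against 0.32 over all genes. Regulatory members of 1500 to 2000 bases had 0.17 against -0.01, and longer ones -0.1 against -0.12. The comparisons share the naïve mice, and the difference between them was not tested. The form of description, the group, the mouse and the level of the other cell types' markers cannot be told apart for mice 2 to 4.

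Single pre-exposed mice weighed on the calls. Without mouse 5, 8 members were called higher (Psma7, Psmb3, Psmb6, Psmb7, Psmc2, Psmc3, Psmc4 and Psmd11) and 0 lower, with 9.17% of all genes called higher and 5.61% lower. Without mouse 1, 17 were called higher, 10 of the core and 7 of the regulatory particle, with 9.51% of all genes called higher. Mouse 1 was the library at the naïve level, with the lowest sum of γδ T cell markers and, with mouse 2, the highest sums of plasma cell and of monocyte and macrophage markers.

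Gene length moved with these values. Core members are short, with 731 to 1693 bases of exon (median 997), and regulatory members longer, with 1252 to 3256 bases (median 1582), so particle and length overlap little. Across the 34 members, the log2 fold change had a Spearman correlation of -0.536 with length, and across all 12655 genes of -0.51. These genes share libraries and lengths, and the values describe them without a test. Among genes of up to 1000 bases, the median log2 fold change was 0.69 over 8 core members and 0.87 over all 1416 genes. Between 1000 and 1500 bases, it was 0.65 over 6 core members, 0.37 over 5 regulatory members and 0.45 over all genes. From 1500 to 2000 bases, 10 regulatory members had a median of 0.59 against 0.21 over all genes, and above 2000 bases, 5 had a median of -0.08 against -0.18.

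**Figure D5:**
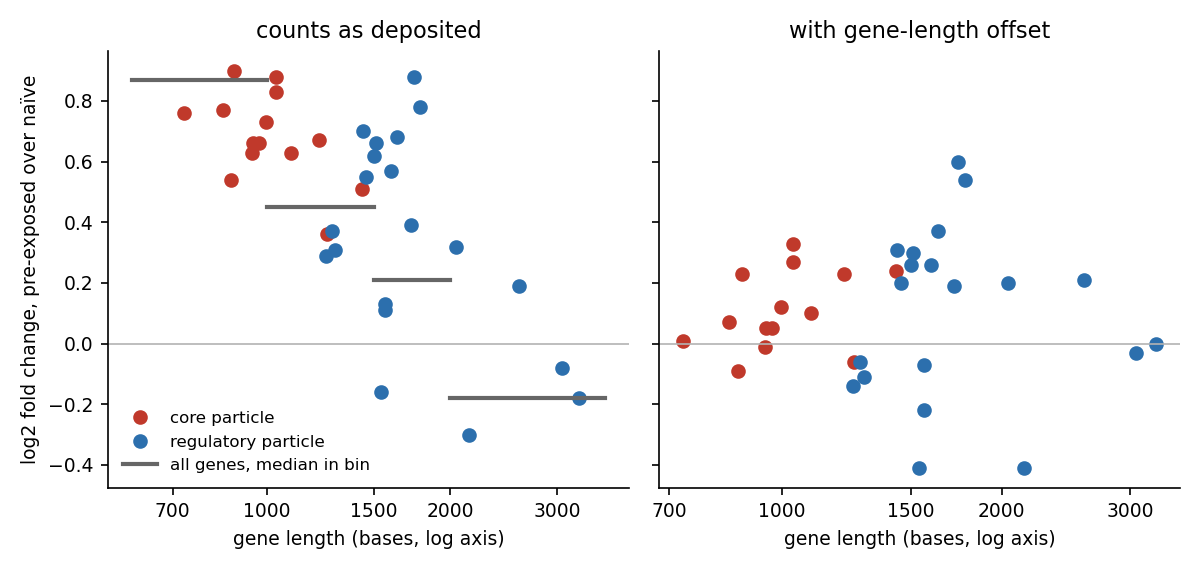
Log2 fold change, pre-exposed over naïve, of the 34 members against gene length in bases (log axis), from the counts as deposited (left) and with an offset for gene length (right); red points are core and blue points regulatory members, and grey lines the median of all genes in 4 length classes, drawn to the edge of the axis for the shortest and longest class. On the left most core members of up to 1000 bases lie below their grey line (0.87), and most of 1000 to 1500 bases above theirs (0.45). On the right both particles scatter about 0.

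With an offset that removes each library's trend of counts on gene length, 0 members were called by edgeR (2 at an unadjusted p of 0.05, both regulatory), with 1.38% of all genes called higher. The core median was then 0.08, with 11 of 14 members above 0, and the regulatory median 0.19, with 11 of 20 above 0, and the difference of the particle balance was 0.01. Psma7 went from 0.90 to 0.23, Psmb6 from 0.88 to 0.33, Psmd11 from 0.88 to 0.60 and Psmc2 from 0.78 to 0.54, the last 2 being the highest of the members with the offset. The offset also removes any difference that the core genes share with other short genes.

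GC content of the transcripts separated members within groups as well. The particles did not differ much in it (39.4% to 56.6%, median 49.2%, and 37.0% to 58.3%, median 49.6%). Within libraries, the Spearman correlation of the members' difference from the naïve mean with GC content ran from -0.812 (naïve mouse 2) to 0.875 (naïve mouse 5), and was 0.617, 0.27, -0.0595, 0.591 and -0.505 in pre-exposed mice 1 to 5. The GC-poor members Psmc6 (37.0%) and Psma3 (40.8%) were highest in mouse 5 and the GC-rich Psmd3 (58.3%) lowest there. Over the group comparison, the correlation with GC content was 0.148. These are descriptions over 34 members that share each library, and their part in the group difference was not tested.

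The immunosubunits, which interferon-γ can induce, can replace the catalytic subunits, so each was compared with its constitutive partner. The ratios below are of RNA and do not show which form of the protease is assembled. The ratio per length of Psmb8 to Psmb5 was 2.5, 2.37, 2.75, 2.38 and 2.44 on the log2 scale in naïve mice 1 to 5. Pre-exposed mice 1 to 5 had log2 ratios of 2.47, 2.58, 2.32, 2.45 and 2.17, and the groups overlapped. Psmb8 was thus 5.61-fold above Psmb5 in the naïve and 5.27-fold in the pre-exposed group (2.49 ± 0.16 and 2.40 ± 0.16 on the log2 scale, SD, n = 5 each). The difference was -0.09, with an exact permutation p of 0.405 (two-sided, 0.607 after adjustment over 3 pairs). Psmb9 and Psmb6 were near parity, with a log2 ratio of 0.09 ± 0.15 (SD, n = 5) in the naïve group and -0.07 ± 0.19 (SD, n = 5) after pre-exposure, and the difference of -0.16 gave an exact permutation p of 0.183 (adjusted 0.548). For Psmb10 to Psmb7 the log2 ratio was 1.10 ± 0.56 and 0.98 ± 0.19 (SD, n = 5 each), and the difference of -0.12 gave an exact permutation p of 0.651 (adjusted 0.651). Its naïve values fell apart, with 0.59 and 0.41 in mice 1 and 2 and 1.41 to 1.57 in mice 3 to 5. None of the 3 ratios passed the threshold, which does not show that they were alike.

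The immunosubunits themselves had log2 fold changes of 0.46, 0.70 and 0.46 (Psmb8, Psmb9 and Psmb10), with adjusted p of 0.274, 0.0610 and 0.304. Psmb9 was at 124, 102, 137, 124 and 150 CPM in naïve mice and at 187, 265, 206, 212 and 161 CPM in pre-exposed mice. The groups did not overlap, mouse 5 being the nearest to the naïve mice. In mice 2 to 4 alone, Psmb8 and Psmb9 were called higher, where 14.9% of all genes were called higher and 14.9% lower. With the length offset over all mice, the log2 fold changes of Psmb8, Psmb9 and Psmb10 were 0.01, 0.03 and 0.05 (adjusted p = 0.984, 0.957 and 0.939).

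Of 40 other genes of the proteasome pathway, 38 were tested, and 4 were called higher (10.5%, where 5.12% of all genes were) and 1 lower (2.63%, where 1.17% were). With the length offset, 0 were called higher and 1 lower. Paaf1 was not matched and Nfe2l3 was too low to test. The 5 factors that assemble the core particle had the highest median of the 8 lists (1.10, with 2 of 5 called). Pomp, the maturation protein of the beta ring, was at 98.2, 107, 117, 92.6 and 125 CPM in naïve mice and at 134, 370, 239, 243 and 366 CPM in pre-exposed mice. All pre-exposed mice were above all naïve mice, mouse 1 by the least, and the log2 fold change was 1.32 (adjusted p = 0.0183), and 0.51 with the length offset (adjusted p = 0.192). Psmg1, a chaperone of alpha ring assembly, was the other called gene of that list, with a log2 fold change of 1.10 (adjusted p = 0.0457), and 0.49 with the length offset (adjusted p = 0.352). For Psmg1, mice 1 and 5 alone gave 0.50 against 1.34 in mice 2 to 4.

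Psme2, a subunit of the interferon-inducible PA28 activator, had 116, 102, 125, 78.2 and 86.7 CPM in naïve mice and 92.6, 381, 205, 262 and 298 CPM in pre-exposed mice. Mouse 1 lay within the naïve range and the others above, for a log2 fold change of 1.29 (adjusted p = 0.0312), and 0.65 with the length offset (adjusted p = 0.212). Sem1, the smallest lid subunit, which the symbol pattern does not take, was at 160 to 289 CPM in naïve mice and at 217, 653, 499, 445 and 1051 CPM in pre-exposed mice (log2 fold change 1.27, adjusted p = 0.0418). With the length offset this was 0.19 (adjusted p = 0.71). Uba6, an enzyme that activates ubiquitin, was the gene called lower, and is lower in the study's own list of called genes too. It was at 64.1, 82.5, 53.3, 91.1 and 57.9 CPM in naïve mice and at 44.4, 11.9, 17.2, 20.7 and 26.5 CPM in pre-exposed mice. The groups did not overlap, and its level fell by 1.54 on the log2 scale (adjusted p = 0.0202), and by 1.27 with the length offset (adjusted p = 0.0253).

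In the lists without a called gene, median log2 fold changes were 0.46 over the immunosubunits, -0.22 over 6 shuttle proteins, -0.46 over 3 genes for the transcription factors Nfe2l1 and Nfe2l2 and the activating enzyme Ngly1, and 0.04 over 3 genes of the p97 complex. Nfe2l1 had a log2 fold change of -0.58 (adjusted p = 0.278) and Nfe2l2 one of 0.42 (adjusted p = 0.318). Mice 2 to 4 alone gave -0.79 for Nfe2l1, which was called lower there (adjusted p = 0.0468), and 0.35 for Nfe2l2 (adjusted p = 0.186). In mice 2 to 4 alone, 11 pathway genes were called higher (28.9%) and 5 lower (13.2%), where 14.9% of all genes were called in each direction.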

How the data were processed

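The authors aligned read pairs to mm10 with Subread, counted them per Entrez gene with featureCounts and the built-in RefSeq annotation, and deposited whole-number counts, which are not normalized. Their versions and whether counting used strand are not given in the sources used, so genes that overlap a member (such as Atg4a at Psmd10 and Htr2b at Psmd1) may share its reads. For the library kit, the methods say SMART (ultra-low input) whereas the labels say TruSeq.

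Of 27179 genes, 25275 had a symbol in RefSeq for GRCm38.p6, matched by Entrez ID, which also gave coordinates. filterByExpr kept 13534 genes, of which 767 without a symbol and 112 immunoglobulin genes were left out as in the study's methods. Libraries were scaled by TMM and tested in 1 fit without covariates by edgeR 4.0.16 (R 4.3.3; robust quasi-likelihood, legacy set to FALSE), with Benjamini-Hochberg adjustment over 12655 genes at 0.05. Standard errors were derived from the log2 fold change and the F statistic. Log2 CPM used a prior count of 2, and exact two-sided permutation tests (SciPy 1.17.1) compared group means over 252 splits. Alternatives used DESeq2 1.42.0, limma 3.58.1 (TREAT on voom values, fold change 1.5), an offset from a loess curve (span 0.3) of each library on gene length, other subsets of libraries, and the label form as a covariate. The fits over all 10 libraries, except those with the label form or without the filter on low counts, were tested on simulated data. The simulated counts had no trend with gene length and no split among pre-exposed mice. They therefore cannot show how the fits behave with either.

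The members, lists and tests were chosen with earlier results of these data known. Members were named by rule: the catalytic subunits, the ubiquitin receptors and deubiquitinase, the smallest and largest p of each role class, the 3 largest and 3 lowest log2 fold changes, and the called ones. A result for 1 gene of the pathway list is not reported here. No columns were left unused for want of a sample. The labels number 5 replicates per group and the methods name 5 mice, so each library was counted as 1 mouse, and no pair within a group was a repeat of the same counts (lowest chi-square per gene 24.0). Depth sets the precision of low genes such as Psma8, and no depth-based interval was used for the others.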

Additional observations from a re-analysis of the deposited data

Results flagged for a closer look

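In 98 groups of 5 values (the 34 members tested, the named pathway genes, the ratios and the particle means, by group), the highest or lowest value was examined for its distance from the rest, and 6 stood far apart, where chance alone gives about 1 in 20 groups. Naïve mouse 5 had 176 CPM of Psmb6, the next highest naïve value being 151 CPM, and all pre-exposed values were above both. For Psmd3 the same mouse, naïve 5, had 115 CPM, with the next at 67.2 CPM, and for Psmd8 it had 213 CPM, with the next at 147 CPM. Naïve mouse 5 was the shallowest library, with 6587199 counts, and the one in which the members followed GC content most closely (Spearman correlation 0.875 over 34 members). Their part in these values was not tested. Naïve mouse 4 had the lowest naïve level of Psmb4, 65.1 CPM against 80.9 CPM in the next. Pre-exposed mouse 5 had 727 CPM of Psma3, with the next at 335 CPM. In pre-exposed mouse 5, the core minus regulatory balance was 1.36 (log2), against 0.67 in the next mouse. In this library the top 10 genes took 24.7% of counts, and the erythroid markers summed to 1726 CPM, the highest of all libraries. Their part in the balance was not tested.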

How the results depend on the processing

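The number of members called higher (2 over all 10 libraries) was 8 with DESeq2's test, 20 with pre-exposed mice 2 to 4 alone, 1 with edgeR's legacy dispersion, and 0 with TREAT, with mice 1 and 5 alone, with the label form as a covariate and with the length offset. Other pathway genes called higher (4) became 9, 11, 2 and 0 in the same order, and those called lower (1) became 5 with mice 2 to 4 alone and 0 with TREAT, with mice 1 and 5 alone and with the label form. Leaving out 1 library at a time gave 0 to 17 members higher (17 without pre-exposed 1, 8 without pre-exposed 5 and 0 without any other), and 0 to 9 pathway genes higher and 0 to 3 lower. In these fits, 0.387% to 9.51% of all genes were called higher and 0.0316% to 5.61% lower, with 9.51% higher without pre-exposed 1 and 9.17% without pre-exposed 5. No member was called lower under any of the settings run. The regulatory median log2 fold change (0.34) was 0.04 with the label form and 0.09 with mice 1 and 5 alone. With the length offset the core median (0.66) was 0.08, and the core minus regulatory difference (0.35) was 0.01. Over the libraries left out in turn, the core median ran from 0.52 to 0.81, the regulatory median from 0.27 to 0.46 and the difference from 0.18 to 0.42. It was 0.35 without the 3 assembly chaperones, an alternative chosen after seeing the data. The cause of these changes was not tested. The 3 immunosubunit ratios stayed above an adjusted p of 0.05 in each setting run, among which the subsets of pre-exposed mice are small. With the length offset the difference of Psmb8 to Psmb5 was 0.12 and that of Psmb10 to Psmb7 0.05, above 0 in place of below.

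Over 20 settings and 16 named members, 279 of 320 values kept their side of the threshold, 27 lost a call, 14 gained one and 0 reversed a called direction, while 18 uncalled values in 8 members changed sign. Replicate numbers did not pair the mice, since same-numbered libraries had correlations of -0.104, -0.129, 0.00115, 0.053 and -0.261. With a replicate block, 0 members, and of the other pathway genes 0 higher and 0 lower, were called. With it, 0.348% of all genes were called higher and 0.079% lower, so these counts say little about the members.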
